A study of Mus musculus with 2 samples.

Results

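Muc2, Fcgbp, Clca1, Zg16, Tff3, Agr2, Spink4 and Muc13 are genes of intestinal mucus and of the goblet cells that make it. These 8 genes were taken by name from the 31053 genes of a single-cell RNA matrix of mouse small intestinal organoids, miniature epithelia that gut stem cells form in culture. Their levels were read in 4066 of 21806 barcodes, those with at least 500 detected genes, at least 1000 UMIs (unique molecular identifiers, each standing for 1 captured transcript) and at most 20% mitochondrial UMIs. Levels are given by marker-gated cell type, so that genes restricted to goblet cells can be set apart from genes that most cell types express.

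The study grew organoids without treatment (control) or with melatonin, and its title concerns repair of the intestinal epithelium. According to the labels there was 1 library per group, made on culture day 3 from 3 organoid lines whose cells were combined, so the lines cannot be told apart. The labels name no strain, genotype, sex, age or melatonin dose for the groups. The 3 deposited files of the control sample and the 3 of the melatonin sample were identical byte for byte. The matrix therefore counts as 1 sample, and control was not compared with melatonin. Its barcodes end in the suffix 1 or 2, here called set 1 and set 2, and no label ties a suffix to a treatment. Set 1 gave 2300 kept cells with a median of 29872 UMIs and set 2 gave 1766 with a median of 28759. A total of 29 barcode sequences occurred in both sets, and none of them belonged to a goblet-gated cell. There are no replicates, so no test was run. Ratios of set 2 over set 1 have an arbitrary direction, and intervals are 95% intervals that cover counting error only.

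Goblet cells release gel-forming mucin that swells into the mucus layer over the epithelium. Muc2 is its main structural polymer in the intestine, and Fcgbp, Clca1 and Zg16 are secreted with it as mucus proteins. Agr2 is an endoplasmic reticulum protein needed to make Muc2, Tff3 is a small trefoil peptide that acts in epithelial repair, Spink4 is a small secreted protein of the Kazal inhibitor family, and Muc13 is a mucin anchored in the cell membrane.

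Cells were gated by the number of marker genes with at least 2 UMIs, and none of the 8 genes served as a marker. The goblet gate asked for at least 3 of 13 markers, such as Spdef and Creb3l1, transcription factors of secretory cells, and Klk1. It held 12 cells of set 1 (0.522% of kept cells, exact interval 0.270% to 0.910%) and 13 cells of set 2 (0.736%, 0.393% to 1.26%). Summed over these cells, 12 of the 13 goblet markers had UMIs in set 1, where Ramp1 was at 0, and all 13 in set 2. The goblet gate also carried Paneth cell markers, which belong to the antimicrobial cells of the crypt base. At least 3 of 11 Paneth markers, such as Lyz1 and Defa24, were present at 2 UMIs or more in 5 goblet-gated cells of set 1 and 6 of set 2. The other 14 goblet-gated cells, 7 in each set, had 1 or 2 Paneth markers, and none lacked them all. The summed level of the Paneth markers was 1306 CPM (UMIs per 1000000 UMIs) in set 1 and 6397 CPM in set 2 over the cells with 1 or 2 of them, against 25569 and 52284 CPM over those with 3 or more. The number of markers did not order single cells by that level in set 2, where cells with 1 or 2 ran from 1.30 to 169 UMIs per 10000 and cells with 3 or more from 33.6 to 983. Cells that passed the Paneth gate alone numbered 1 and 2, so pure Paneth cells could not be used for comparison. The markers of cell division were also met by 8 goblet-gated cells in each set. Immune markers gave 1 UMI and 2 UMIs over the goblet gate of set 1 and set 2, and mesenchymal markers 1 UMI and 0.

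The other gates were enteroendocrine (hormone-producing, 288 and 278 cells in set 1 and set 2), enterocyte (absorptive, 81 and 154), revival (a state with Clu and Anxa1 described in regenerating epithelium, 10 and 22), tuft (chemosensory, 10 and 2), stem (635 and 293) and cycling (656 and 532). A further 591 and 455 cells passed no gate, and 16 and 15 cells passed several and were set aside as mixed. Ungated cells of set 1 were shallow, with a median of 2576 UMIs, against 15515 in set 2.

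Of the 8 genes, 4 were restricted to the goblet gate, 1 was intermediate, 1 was broadly expressed and 2 could not be placed. Restricted means that, in each set, the level in goblet-gated cells was at least 10-fold above that in the highest other gate. The Paneth gate, of 1 and 2 cells, and the mixed cells were left out of this rule. Muc2, Fcgbp, Agr2 and Spink4 met this rule, which 12 of 11649 genes with at least 50 UMIs in each set met (0.103%). Outside goblet-gated, Paneth-gated and mixed cells Muc2 had 43 and 22 UMIs, so it passed the 50 UMI filter only through cells where it was high, and its class is a description. The same holds for 6 of the 12 genes in all, and 6 are markers of the goblet or Paneth gate, so that 4 genes, Agr2, Fcgbp, Spink4 and Guca2a, are neither. Tff3 was intermediate and Muc13 was broad, with a level in another gate above 0.5 times the goblet level in each set, which 51.0% of those genes reached. Clca1 and Zg16 had too few UMIs in goblet-gated cells of at least 1 set. The gate markers among the 12 were Spdef and Tpsg1 for goblet and Lyz1, Ang4, Defa17 and Defa24 for Paneth cells, and the others besides the members were the hormone precursor Guca2a and the chemokine Ccl9. Among the members near the limit, Agr2 in the highest other gate stood at 7.52% of its goblet level in set 2, and Tff3 at 16.9% in set 2.

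**Figure D1:**
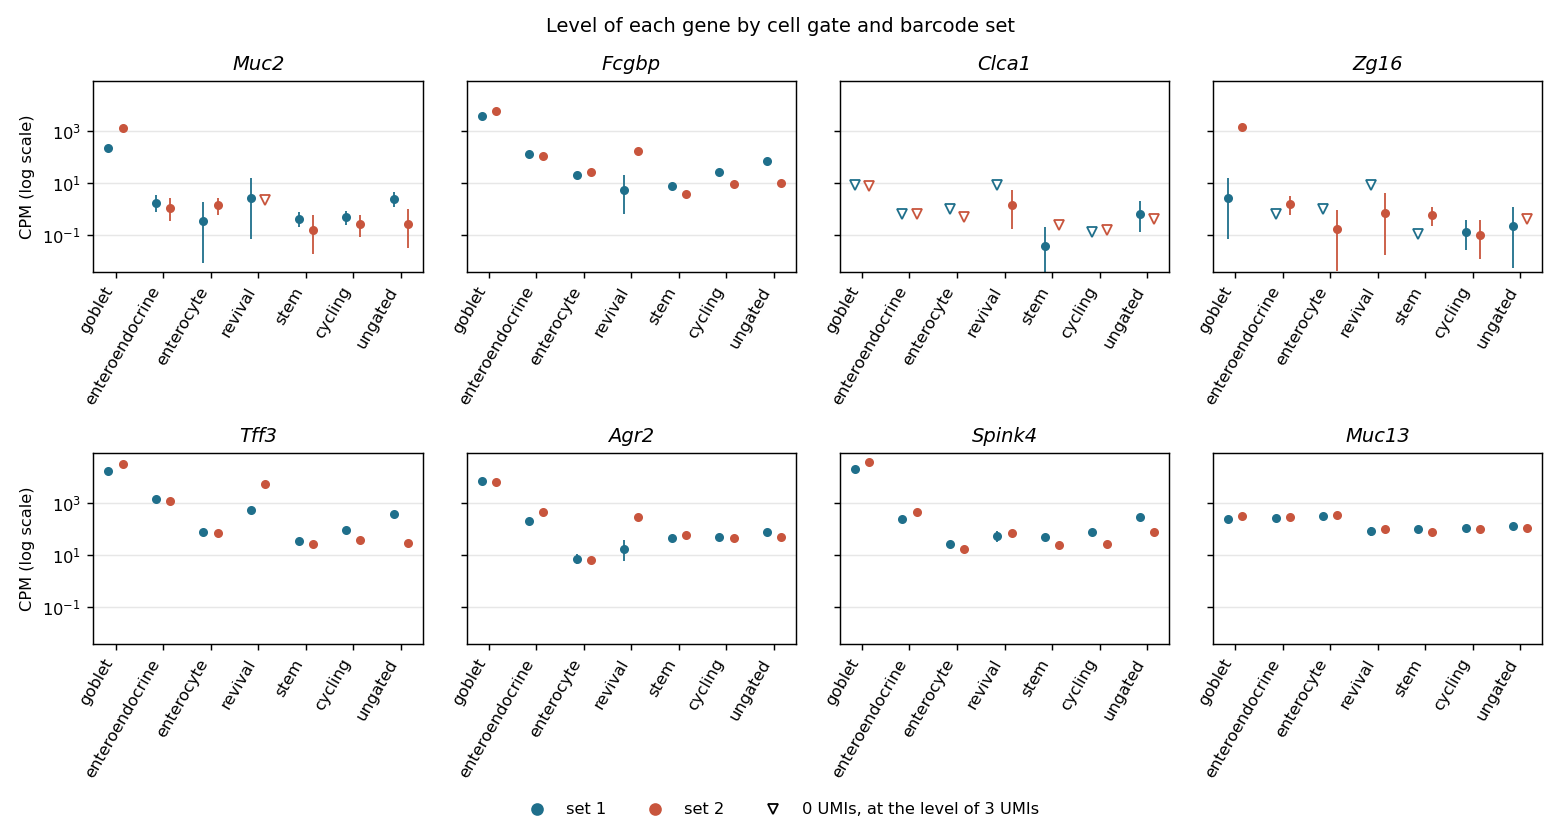
Level of each of the 8 genes (CPM, UMIs per 1000000 UMIs of the gate, log scale) in 7 cell gates, for set 1 (blue) and set 2 (red), with 95% counting intervals; open triangles mark 0 UMIs, drawn at the level that 3 UMIs would give. Muc2, Fcgbp, Agr2 and Spink4 stand at least 10-fold higher in the goblet gate than in any other gate shown, while Muc13 lies between 73.2 and 347 CPM in every gate shown.

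The promoters of 4 members were in the RefSeq promoter table (build GRCm38.p6), and they are shown for 3 restricted genes and the broad one because those classes are the main contrast in these data. Each line gives the 250 bases before the annotated start, on the plus strand, 5′ to 3′. Capitals mark every match to 8 short motifs searched on both strands. These were the TATA box TATAAA, the E-box CAGCTG, the Klf element CACCC, the Gata element AGATAA, the forkhead element TGTTTAC, the Cdx element CAATAAA, the Hnf4 element CAAAGTCCA and the cyclic AMP element ACGTCA.
Fcgbp, chr7:28070986-28071235: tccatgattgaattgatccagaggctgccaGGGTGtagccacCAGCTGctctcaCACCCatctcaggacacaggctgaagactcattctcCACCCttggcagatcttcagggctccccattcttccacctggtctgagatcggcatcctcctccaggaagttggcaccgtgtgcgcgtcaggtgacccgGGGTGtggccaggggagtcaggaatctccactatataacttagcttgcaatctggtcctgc
Muc2, chr7:141690090-141690339: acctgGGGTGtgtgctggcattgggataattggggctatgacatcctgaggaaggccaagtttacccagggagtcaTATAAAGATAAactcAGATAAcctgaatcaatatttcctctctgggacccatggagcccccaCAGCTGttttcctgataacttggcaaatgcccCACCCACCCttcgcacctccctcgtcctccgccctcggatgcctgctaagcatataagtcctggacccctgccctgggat
Agr2, chr12:35992675-35992924: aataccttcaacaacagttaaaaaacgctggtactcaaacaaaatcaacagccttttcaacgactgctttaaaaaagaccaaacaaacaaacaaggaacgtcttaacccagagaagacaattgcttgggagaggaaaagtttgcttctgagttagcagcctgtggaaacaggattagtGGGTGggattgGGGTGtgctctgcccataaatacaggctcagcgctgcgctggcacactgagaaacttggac
Muc13, chr16:33794239-33794488: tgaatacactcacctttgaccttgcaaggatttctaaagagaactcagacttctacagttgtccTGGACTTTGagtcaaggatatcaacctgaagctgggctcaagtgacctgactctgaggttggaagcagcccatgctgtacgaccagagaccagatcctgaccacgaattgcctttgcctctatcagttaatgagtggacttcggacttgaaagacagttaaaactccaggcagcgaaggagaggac

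CAGCTG, a palindrome that 16.3% of all 32851 promoter windows of 300 bases held, lay 208 bases before the Fcgbp start and 112 bases before the Muc2 start. CACCC, or its reverse complement GGGTG, occurred in Fcgbp, Muc2 and Agr2 and in 57.5% of all windows. The Muc2 promoter held AGATAA at 169 and 159 bases before the start (11.2% of all windows), the first of which overlaps the TATAAA at 174 bases (13.6%). The Muc13 window held only CAAAGTCCA, read on the minus strand (0.475% of windows), and a second annotated Muc13 start had none of the 8 motifs. A match is a run of letters and was not tested as a binding site. The build behind the deposited counts is not given in the sources used here.

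Muc2, the gel-forming mucin (ENSMUSG00000025515), had 65.1% and 89.0% of its UMIs in goblet-gated cells in set 1 and set 2, and a few of those cells held most of these. Its level (CPM, UMIs per 1000000 UMIs summed over the cells of a gate) was 226 CPM in the goblet gate of set 1 (interval 180 to 280, 82 UMIs) and 1209 CPM in that of set 2 (1103 to 1323, 476 UMIs). The highest level in another gate of the rule was 2.77 CPM in set 1, from 1 UMI in revival-gated cells, and 1.37 CPM in set 2, in enterocyte-gated cells. A Muc2 UMI was present in 9 of 12 and 11 of 13 goblet-gated cells. Thinned to 2000 UMIs per cell, the expected share was 28.4% and 45.8%, against 0.0631% and 0.227% of enterocyte-gated cells, a type that should lack the gene (unthinned 1.23% and 5.19%, at median depths of 35642 and 35453 UMIs). Enterocyte-gated cells were deeper than goblet-gated cells, whose medians were 28855 and 23862 UMIs.

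Per cell, Muc2 ran from 0 over a median of 1.35 to 14.9 UMIs per 10000 in set 1, and from 0 over 2.37 to 55.2 in set 2. The ranges overlapped widely, and only 3 cells of set 2 lay above every cell of set 1. These 3 cells held 78.8% of the Muc2 UMIs of the set 2 goblet gate, and the 3 richest cells of set 1 held 69.5% of theirs. The summed Muc2 level was higher over cells with 3 or more Paneth markers than over cells with 1 or 2. In set 1 it was 513 CPM (interval 388 to 664) against 99.2 CPM (64.2 to 146), although 2 of the 5 cells with 3 or more had no Muc2 UMI. In set 2 it was 2009 CPM (1817 to 2216) against 386 CPM (304 to 484). There, 1 cell held 65 of the 75 UMIs of those with 1 or 2 markers, and without it, an alternative added after the data were seen, they were at 73.8 CPM. The summed Paneth markers of the cells with 3 or more ran from 133 to 345 UMIs per 10000 in set 1, with 6 of 11 markers detected, and from 33.6 to 983 in set 2, with 7 of 11 detected. Defa21, Defa22, Mptx2 and AY761184 were at 0 in these cells of both sets. The part of the Paneth markers in the Muc2 difference was not tested.

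**Figure D2:**
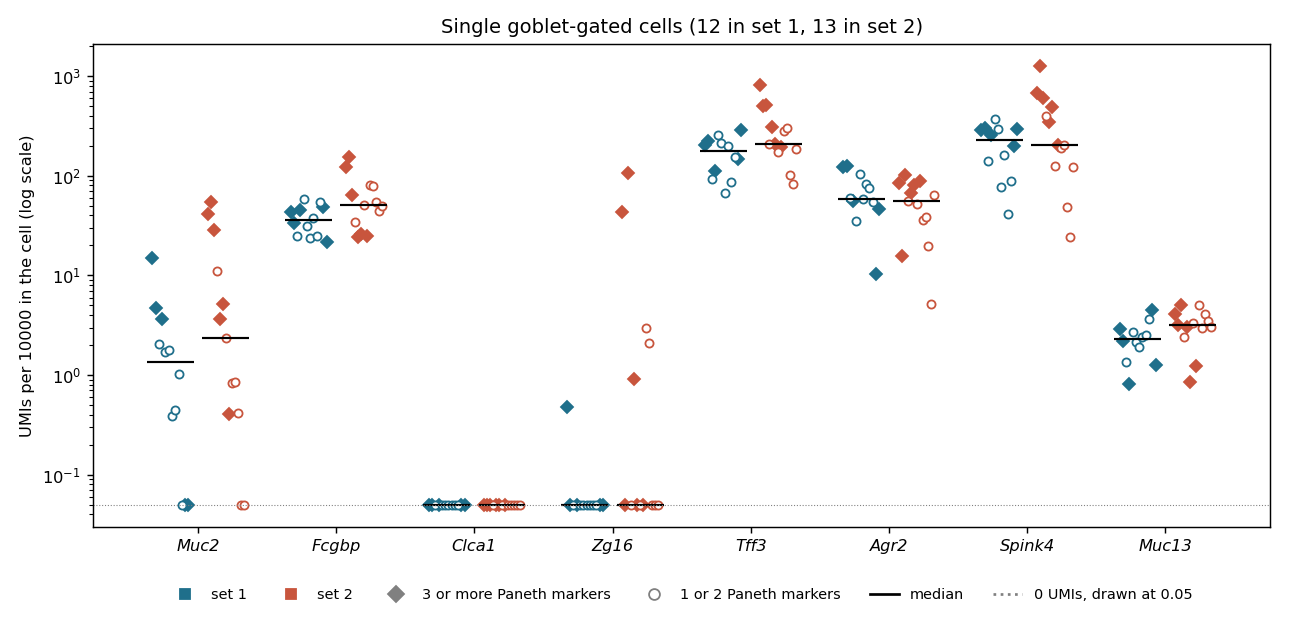
Level of each gene (UMIs per 10000 UMIs of the cell, log scale) in each of the 12 goblet-gated cells of set 1 (blue) and 13 of set 2 (red); filled diamonds are cells with 3 or more Paneth markers, open circles cells with 1 or 2, black lines medians, and cells with 0 UMIs are drawn on the dotted line. Muc2 and Zg16 are uneven from cell to cell, whereas Fcgbp, Tff3, Agr2, Spink4 and Muc13 are present in every goblet-gated cell.

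Fcgbp, a large mucus protein that binds to the mucin network (ENSMUSG00000047730), was present in all goblet-gated cells and varied less from cell to cell than Muc2. Single cells ran from 21.5 over a median of 35.6 to 58.6 UMIs per 10000 in set 1 and from 24.5 over 51.2 to 156 in set 2. The upper end of set 2 lay above set 1 in 5 cells, and the remaining 8 fell inside its range. Summed over the gate, set 1 had 3690 CPM (3495 to 3893) and set 2 had 5885 CPM (5648 to 6129). Enteroendocrine-gated cells came next in set 1 with 125 CPM (115 to 136). Among the gates of the rule in set 2, the revival gate was next with 172 CPM (151 to 196), where 1 cell held 225 of 241 UMIs. The tuft gate, with 108 CPM from only 2 UMIs, and the enteroendocrine gate, with 106 CPM (97.1 to 116), followed. The 2 Paneth-gated cells of set 2 had 783 CPM (581 to 1032), with all 50 UMIs in 1 of them. Stem-gated cells were at 7.75 and 3.67 CPM. In set 1, goblet-gated cells with 3 or more Paneth markers had 4002 CPM of Fcgbp (3639 to 4392) and those with 1 or 2 had 3553 CPM (3324 to 3793), whose intervals overlap. In set 2 the summed levels were 6493 CPM (6145 to 6857) and 5259 CPM (4941 to 5592), but the medians over cells had the opposite order, at 45.0 and 51.2 UMIs per 10000.

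Clca1, a secreted protease that processes mucus (ENSMUSG00000028255), was not detected in any goblet-gated cell. Taking 3 UMIs as the limit, the 0 UMIs there allow a level of 8.26 CPM for set 1 and of 7.62 CPM for set 2. Over all kept cells it had 4 UMIs in set 1, in 2 cells, and 43 UMIs in set 2, also in 2 cells. A single mixed cell of set 2 held 41 of those 43. That cell passed the goblet, Paneth and revival gates together, with 6 goblet, 5 Paneth and 7 revival markers among its 57813 UMIs, and could hold the RNA of more than 1 cell, which was not tested.

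Zg16, a lectin-like protein of secretory granules and mucus (ENSMUSG00000049350), had the largest ratio between the sets. It had 5 UMIs among all kept cells of set 1 and 1258 in set 2, and 3 cells of set 2 held 97.4% of them. The richest was the same mixed cell, with 696 UMIs. The other two were goblet-gated cells with 3 or more Paneth markers that had 339 and 190 UMIs, or 106 and 43.7 per 10000. A further 3 goblet-gated cells of set 2 had 7, 5 and 3 UMIs, 8 had none, and in set 1 only 1 of 12 had a UMI. Goblet-gated cells of set 2 with 1 or 2 Paneth markers were at 61.8 CPM (31.9 to 108), against 2666 CPM (2444 to 2902) in those with 3 or more. In gates other than goblet and mixed, Zg16 did not exceed 1.53 CPM in either set.

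Tff3, the trefoil peptide (ENSMUSG00000024029), was high in goblet-gated cells and also present in enteroendocrine cells. The revival gate of set 2, at 16.9% of the goblet level, kept it out of the restricted class. With only gates of at least 20 cells in each set, an alternative added after the data were seen, it was restricted. The goblet gate of set 1 had 15904 CPM (15497 to 16320) and that of set 2 had 31306 CPM (30755 to 31863). Single goblet-gated cells ran from 67.9 over 177 to 290 UMIs per 10000 in set 1 and from 82.5 over 208 to 811 in set 2. Most cells of set 2 lay within the range of set 1, and 5 lay above it. In the enteroendocrine gate, set 1 had 1363 CPM (1329 to 1397) and set 2 had 1149 CPM (1119 to 1181). The single Paneth-gated cell of set 1, outside the rule, had 37 Tff3 UMIs among 1559. That is 23733 CPM (16710 to 32713), not below the goblet gate of set 1. The 2 Paneth-gated cells of set 2 had 1879 CPM (1558 to 2246), with 115 of 120 UMIs in 1 cell. Thinned to 2000 UMIs, 59.1% and 58.9% of enteroendocrine-gated cells had a Tff3 UMI, against 4.48% and 5.37% of enterocyte-gated cells (unthinned 88.5% and 89.9% against 39.5% and 38.3%). This share differed between cell types far beyond the counting intervals, which were 53.1% to 64.8% and 52.8% to 64.7% for enteroendocrine cells and reached at most 12.2% for enterocytes.

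The second place of Tff3 among the gates of the rule in set 2 was the revival gate, with 5283 CPM (5163 to 5405), against 520 CPM (449 to 600) in set 1. Only a few cells set this level: of 22 revival-gated cells, 3 held 88.3% of 7388 UMIs. The richest had 4884 Tff3 UMIs among 106869, together with 335 Agr2, 225 Fcgbp, 78 Spink4 and 62 Muc13 UMIs, and no Muc2 or Zg16. It carried 9 of 9 revival and 8 of 12 enterocyte markers, but only 2 goblet markers and 1 Paneth marker. The next 4 had 1114, 524, 490 and 192 Tff3 UMIs with at most 4 of Fcgbp, 1 of Agr2 and 2 of Spink4. In these 4 cells Tff3 was thus high with almost none of the other secreted members. Tff3 per Spink4 UMI was 0.822 and 0.852 in the goblet gates of set 1 and set 2 and 9.89 and 77.0 in the revival gates. In the enteroendocrine gates it was 5.79 in set 1 and lower in set 2, from 5262 Tff3 and 1946 Spink4 UMIs. The value for the revival gate of set 2 rests on 96 Spink4 UMIs, of which the richest cell held 78.

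Agr2, the folding protein (ENSMUSG00000020581), was restricted by the rule and was also present at a low level in stem and cycling cells. The goblet gate of set 1 was at 7058 CPM (6788 to 7337) and that of set 2 at 6019 CPM (5779 to 6267). Single goblet-gated cells ran from 10.4 over 58.8 to 127 UMIs per 10000 in set 1 and from 5.21 over 55.8 to 103 in set 2, with nearly equal medians and overlapping ranges. Stem-gated cells had 46.3 CPM (43.7 to 49.0) and 58.5 CPM (54.2 to 62.9), and cycling cells 48.2 and 45.7 CPM. Enterocyte-gated cells, at similar depth, had only 7.13 CPM (4.41 to 10.9) and 6.34 CPM (4.47 to 8.74). Thinned shares were 7.48% and 8.96% for stem against 1.12% and 0.981% for enterocyte cells (unthinned 61.4% and 60.8% against 17.3% and 12.3%). Agr2 per Spink4 UMI was 0.365 and 0.164 in the goblet gates, and 0.932 and 2.48 in the stem gates. The 2 genes therefore did not keep a fixed ratio between goblet and stem cells.

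Spink4, the Kazal-type protein (ENSMUSG00000028415), was present in all goblet-gated cells. Set 1 had 19352 CPM (18902 to 19810) and set 2 had 36749 CPM (36152 to 37352). Single cells ran from 41.7 over 228 to 369 UMIs per 10000 in set 1 and from 24.3 over 204 to 1266 in set 2. The median of set 2 was below that of set 1 although its summed level was higher, since 5 cells of set 2 lay above all cells of set 1. Summed Spink4 was higher over goblet-gated cells with 3 or more Paneth markers than over those with 1 or 2, at 26837 against 16048 CPM in set 1 and 52649 against 20402 CPM in set 2. The highest other gates of the rule were ungated cells in set 1, at 288 CPM (272 to 304), and enteroendocrine cells in set 2, at 425 CPM (406 to 444). Outside the rule, the single Paneth-gated cell of set 1 had 42 Spink4 UMIs among 1559. That is 26940 CPM (19416 to 36416), not below the goblet gate of set 1. The 2 Paneth-gated cells of set 2 had 1299 CPM (1035 to 1611), with 77 of 83 UMIs in 1 cell. Many other cells had Spink4 UMIs, and whether these came from the cell or from free RNA was not tested. Barcodes with over 50% mitochondrial UMIs, which were not kept, had 157 CPM of Spink4 in set 1 and 98.7 CPM in set 2. Thinned shares in enterocyte-gated cells, which should lack the gene, were 4.93% and 2.37%, in stem-gated cells 9.11% and 4.79%, and in cycling cells 10.4% and 4.83% (unthinned 43.2% and 24.0%, 74.5% and 50.2%, and 71.2% and 44.4%). In each of these gates the share was lower in set 2, and the summed level was lower too, at 27.2 and 17.3 CPM in enterocyte, 49.7 and 23.6 CPM in stem and 78.1 and 26.8 CPM in cycling cells.

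Muc13, the membrane mucin (ENSMUSG00000022824), did not mark goblet cells. The highest level of the gates with at least 20 cells in each set was that of enterocytes, with 299 CPM (280 to 320) for set 1 and 347 CPM (332 to 362) for set 2. Enteroendocrine cells followed with 266 CPM (252 to 282) and 284 CPM (269 to 300), and goblet-gated cells had 234 CPM (187 to 289) and 310 CPM (257 to 370). The goblet interval overlapped both of the others in each set, so this order is not resolved for goblet cells. Ungated, cycling and stem cells were lower, at 133, 109 and 94.7 CPM in set 1 and 109, 94.6 and 73.2 CPM in set 2. Single goblet-gated cells ran from 0.818 over 2.33 to 4.54 UMIs per 10000 in set 1 and from 0.860 over 3.21 to 5.03 in set 2. That is a spread of a few fold, where Muc2 ran from 0 to 55.2. Goblet-gated cells held 1.09% and 1.70% of all Muc13 UMIs, against 65.1% and 89.0% of Muc2, 52.0% and 66.5% of Spink4, 41.2% and 61.5% of Fcgbp, 41.4% and 33.4% of Agr2 and 32.5% and 40.5% of Tff3.

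Enteroendocrine cells had the highest level of Agr2 outside the goblet gate in both sets, and of Fcgbp and Tff3 in set 1 and Spink4 in set 2 among the gates of the rule. Cells of the enteroendocrine gate were taken with at least 10 UMIs of Tph1 (serotonin synthesis), Reg4, Gip, Gcg (the glucagon precursor), Cck, Ghrl (ghrelin) or Sct (secretin), or at least 2 UMIs of Neurog3, the transcription factor of their progenitors. These subsets overlap and were chosen after the values had been seen, so they are a description. Agr2 was high in Gcg cells, at 1144 CPM in set 1 (29 cells) and 1031 CPM in set 2 (63 cells), and in Sct cells, at 767 and 1317 CPM (57 and 70 cells). It was low in Tph1 cells, at 20.1 and 10.7 CPM (139 and 143 cells), and in Reg4 cells, at 9.35 and 43.4 CPM (59 and 79 cells). In both sets Gcg and Sct cells were above Tph1 and Reg4 cells, while the order within each of these pairs differed. Spink4 was at 609 and 638 CPM in Gcg cells and at 71.0 and 66.5 CPM in Tph1 cells. It did not follow Agr2 in Gip cells, at 482 CPM in both sets where Agr2 had 31.3 and 76.6 CPM, or in Neurog3 cells, at 139 and 345 CPM where Agr2 had 19.6 and 124 CPM. Tff3 was present in all subsets, from 927 and 647 CPM in Tph1 cells to 3548 and 1804 CPM in Ghrl cells, and Muc13 ran only from 245 to 380 CPM.

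Within the enteroendocrine gate, Agr2 and Spink4 were carried by few cells. Of 288 cells in set 1, 14 (4.86%) had at least 10 Agr2 UMIs per 10000 and held 83.9% of its UMIs, and of 278 in set 2, 29 (10.4%) held 93.0%. For Spink4 it was 12 cells (4.17%) with 66.6% of its UMIs in set 1 and 17 cells (6.12%) with 85.6% in set 2. Tff3 reached that level in 94 (32.6%) and 82 (29.5%) of the cells. Muc2 did not exceed 1.54 UMIs per 10000 in any enteroendocrine-gated cell of set 1 or 1.04 in set 2, and Clca1 was at 0 in this gate.

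**Figure D3:**
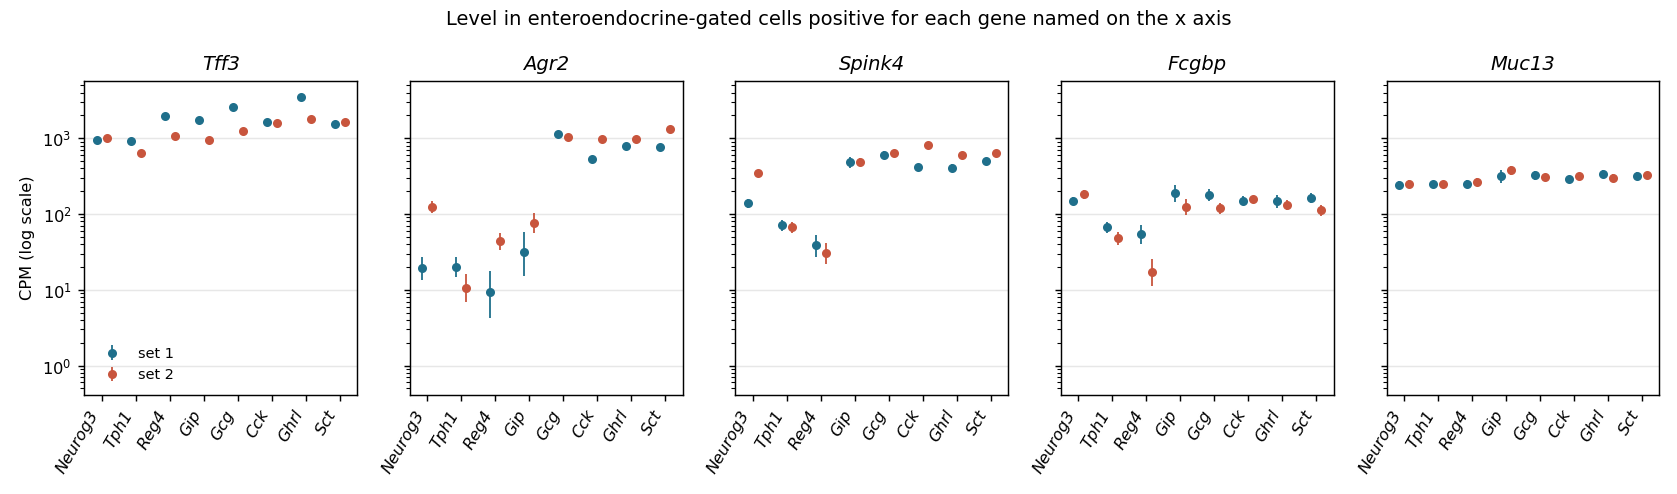
Level (CPM, log scale) of 5 of the genes in enteroendocrine-gated cells that were positive for the gene named on the x axis, for set 1 (blue) and set 2 (red), with 95% counting intervals; subsets overlap. Agr2 stands at 536 to 1317 CPM in Gcg, Cck, Ghrl and Sct cells and at 9.35 to 124 CPM in Neurog3, Tph1, Reg4 and Gip cells, while Muc13 is nearly level.

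Over all kept cells, the sets differed in several secreted members. Of the 6 members at 10 CPM or more in the mean of the sets, 3 were past 1.5-fold, all higher in set 2, against 3.56% of the 7357 genes at that level (2.61% for higher in set 2). One of the 3, Zg16, reached 10 CPM only through set 2 and so had to differ, and the share of members is not read against that background. Zg16 was at 0.0811 CPM in set 1 and 24.6 CPM in set 2, a ratio of 303 with an interval of 130 to 936 that rests on 5 UMIs in set 1. Tff3 was at 288 and 596 CPM, a ratio of 2.07 (2.03 to 2.11), and Spink4 at 219 and 426 CPM, a ratio of 1.94 (1.90 to 1.98). Not past the limit were Fcgbp (52.8 and 73.7 CPM, ratio 1.40), Agr2 (100.4 and 139 CPM, 1.38) and Muc13 (127 and 141 CPM, 1.11). Muc2, below 10 CPM in the mean, was at 2.04 and 10.5 CPM, a ratio of 5.12 (4.21 to 6.27), and Clca1 had a ratio of 13.0 (4.71 to 49.7) from 4 and 43 UMIs.

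Most of these ratios changed without the goblet-gated, Paneth-gated and mixed cells. When those cells were left out, an alternative added after the data were seen, the ratio of Spink4 went to the other side of 1, at 0.769 (0.737 to 0.802), and that of Fcgbp to 0.813 (0.754 to 0.876). Muc2 was at 0.619 with an interval that includes 1 (0.353 to 1.06), Zg16 at 5.45 (1.79 to 22.1) from 4 and 18 UMIs, and Clca1 at 0.605 from 4 and 2 UMIs. Tff3 was at 1.55 (1.52 to 1.59), Agr2 was now past 1.5-fold at 1.51 (1.44 to 1.58), and Muc13 was at 1.10. Some of the cells left in were rich in Spink4. In set 1, 1 cycling cell held 389 of 1753 Spink4 UMIs of its gate, and 3 ungated cells held 37.0% of 1283. In set 2, 1 enteroendocrine-gated cell held 491 of 1946. The part of these cells in the Spink4 ratio was not tested. The Tff3 and Agr2 calls rested on the revival-gated cell of set 2 with 4884 Tff3 UMIs. Without it as well, also added after the data were seen, Tff3 was at 1.03 (0.998 to 1.05) and Agr2 at 1.40 (1.34 to 1.46). Fcgbp, which that cell also carried, was then past 1.5-fold in the other direction, at 0.656 (0.606 to 0.711). In stem-gated, cycling and ungated cells the summed Tff3 level was lower in set 2, as in enteroendocrine cells. It was 35.2 and 25.3 CPM in stem-gated, 87.4 and 38.6 CPM in cycling and 363 and 27.6 CPM in ungated cells. The 3 richest cells held 58.2% and 34.8% of these UMIs in stem-gated, 35.6% and 52.0% in cycling and 61.7% and 19.5% in ungated cells. The share of stem-gated cells with a Tff3 UMI was not lower in set 2 (thinned 3.33% and 4.02%, unthinned 40.6% and 41.6%). Thinned shares were lower in set 2 in cycling (4.98% and 3.57%) and ungated cells (16.2% and 6.12%). The goblet gates alone gave ratios of 5.35 for Muc2, 1.59 for Fcgbp, 1.97 for Tff3, 0.853 for Agr2, 1.90 for Spink4 and 1.32 for Muc13. Of these, Agr2 was lower in set 2, and the interval of Muc13 (0.995 to 1.77) includes 1. Summed Paneth markers in the goblet gate were higher in set 2, as were Muc2, Fcgbp, Tff3 and Spink4. These markers went from 8736 CPM (8434 to 9045) in set 1 to 29657 CPM (29122 to 30200) in set 2. Of the 11 Paneth markers, 6 and 8 were detected, and Defa21, Defa22 and Mptx2 were at 0 in both. In single cells they ran from 0.710 over 29.2 to 345 UMIs per 10000 in set 1 and from 1.30 over 48.5 to 983 in set 2. Their part in the ratios was not tested. In goblet-gated cells with 1 or 2 Paneth markers, where Paneth markers also differed between the sets, Fcgbp had a ratio of 1.48, Tff3 of 1.32, Spink4 of 1.27, Muc13 of 1.43 and Agr2 of 0.626. Muc2 was at 99.2 and 386 CPM there, and the cell with most of the Muc2 UMIs of set 2 also had 828 UMIs of the Paneth gene Defa24. Without the cell richest in the gene in each set, an alternative added after the data were seen, the ratio of Muc2 was 0.958 (0.389 to 2.25) and that of Spink4 0.898 (0.844 to 0.954). Fcgbp was then at 1.86 (1.68 to 2.06), Tff3 at 1.39 (1.32 to 1.47), Muc13 at 1.76 (1.15 to 2.68) and Agr2 at 0.560 (0.503 to 0.623).

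The Muc2, Fcgbp, Clca1, Zg16, Tff3 and Spink4 ratios over all cells depended on how single cells were weighted. When each cell was given equal weight, 0 members at 10 CPM or more were past 1.5-fold, with Tff3 at 0.34 and Spink4 at 0.32 on the log2 scale in place of 1.05 and 0.96. Leaving out, in each set, the 3 cells with most UMIs of the gene left only Spink4 counted as past the limit. Zg16 was not counted under either setting because it fell below 10 CPM in the mean, and its log2 ratio there was 6.14 and 4.32. Muc2 and Clca1, below 10 CPM in the mean, were not counted either. The log2 ratio of Muc2 was 2.36 over all cells, 1.28 with equal weight and 1.48 without the 3 richest cells. That of Fcgbp was 0.48, 0.0031 and 0.26, and that of Clca1 was 3.70 over all cells and 1.09 with equal weight. The log2 ratio of Agr2 was 0.47 over all cells, 0.41 with equal weight and 0.51 without the 3 richest cells, and that of Muc13 was 0.15, 0.17 and 0.13.

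**Figure D4:**
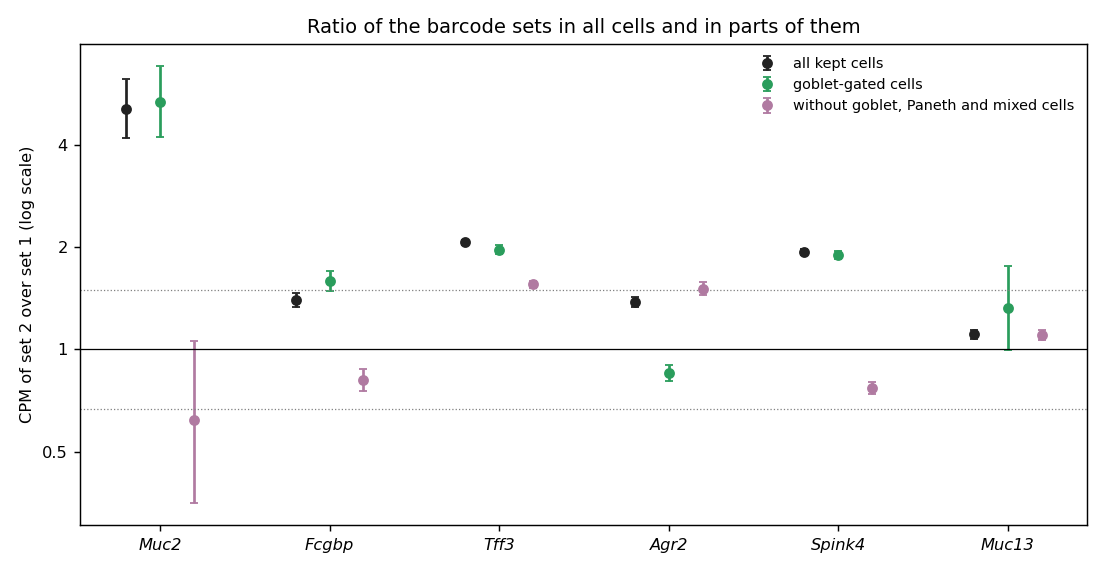
Ratio of CPM in set 2 over set 1 (log scale) for 6 genes over all kept cells (black), in goblet-gated cells (green) and without goblet-gated, Paneth-gated and mixed cells (purple), with 95% counting intervals; dotted lines mark 1.5-fold. Spink4 lies at 1.94 over all cells and at 0.769 without goblet-gated, Paneth-gated and mixed cells, and Muc13 lies near 1 in both.

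The genes most like each member across cells were taken by correlation. Pearson's r of ln(1 + UMIs per 10000) over the 2300 cells of set 1 and 1766 of set 2 was taken for 12729 genes, and the 3 non-member genes with the highest smaller r are named for 6 members. Muc2 was most like Spdef (0.42 in set 1 and 0.51 in set 2), then Guca2a and Lyz1. Fcgbp was most like Lyz1 (0.53 and 0.55), then Clps, the pancreatic colipase gene, and Spdef. Spink4 was followed by Lyz1 (0.40 and 0.51), Defa24 and Spdef, and Agr2 by Spdef (0.35 and 0.35), Onecut3 and Agr3, its close relative. Tff3 was most like Clps (0.58 and 0.61), Selenom and Pcsk1, a prohormone convertase of endocrine cells. Muc13 was most like Selenop (0.38 and 0.52), Cdhr5, a brush border protocadherin, and Aplp1. Among the members, Fcgbp and Spink4 had an r of 0.52 and 0.73, and Muc2 and Muc13 of 0.00053 and 0.081. The cells of a set share a library and differ in depth, so these values are a description. Zg16 and Clca1 had UMIs in too few cells.

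The other genes of mucus production were described from 6 lists, over those at 10 CPM or more. At least 4-fold higher in the goblet gate than in the other gated and ungated cells, in each set, were 5 of 33 list genes, against 0.326% of all 7357 genes. They were Itln1, the lectin intelectin (3343 and 4887 CPM in the goblet gate, 569 and 748 CPM in the rest), the transcription factor Klf4 (311 and 325 against 63.9 and 64.9 CPM), Gcnt3, which builds branched mucin sugars (118 and 104 against 13.7 and 12.2 CPM), Dnajc10, an endoplasmic reticulum disulfide reductase (242 and 201 against 23.8 and 25.4 CPM), and Rab27b, a GTPase of secretory granules (121 and 132 against 9.88 and 11.8 CPM). The rest is 1 pool, and single gates in it can lie closer to the goblet level. Klf4 was at 141 and 128 CPM in enteroendocrine and at 130 and 131 CPM in enterocyte cells. In enteroendocrine cells Dnajc10 was at 101 and 99.6 CPM, Itln1 at 282 and 186, Gcnt3 at 29.8 and 29.5 and Rab27b at 12.4 and 13.3 CPM. Clca4b had 0 and 2 UMIs in the goblet gate, against 54.0 and 62.8 CPM in the rest, which for set 1 is at least 6.53-fold lower by the limit of 3 UMIs. Gcnt4 had 0 UMIs there in both sets, against 11.5 and 13.7 CPM in the rest, which is at least 1.39-fold and 1.80-fold lower by that limit.

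List medians of the log2 ratio of goblet gate over rest were 1.34 and 1.28 in the sets for 5 transcription factors, 1.57 and 1.05 for 6 folding and processing genes, 1.07 and 0.64 for 11 O-glycosylation genes, and 1.01 and 0.99 for 4 granule release genes, against −0.18 and −0.27 over all 7357 genes. These ratios used a pseudocount of 1 CPM. Foxa3, one of the transcription factors, is a marker of the goblet gate, and without it their median was 1.24 and 0.60. The 5 other secreted products had 0.98 and −0.32, and Muc4, a membrane mucin, and Cdhr5, a mucin-like protocadherin, had a median of −0.32 and 0.01. Low-abundance genes of these lists were left out of the medians, among them Atoh1, the transcription factor of the secretory lineage (63.3 and 45.7 CPM in the goblet gate, 0.805 and 0.159 CPM in the rest), and Ern2, the stress sensor of mucin-producing cells (55.1 and 45.7 against 0.328 and 0.0596 CPM). Between the sets, Cdhr5 (ratio 1.60) and Pnliprp2 (1.68) were higher in set 2 and Muc4 (0.582) and Clca3b (0.574) lower, which are 4 of the 33 list genes, against 3.56% of all 7357 genes. The gastric and airway mucins Muc5ac, Muc5b, Muc6 and Muc16, and Retnlb, had at most 3 UMIs over all kept cells.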

How the data were processed

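Single cells were captured with the version 3 chemistry of the Chromium 3′ RNA kit and sequenced on an Illumina instrument, per the labels' protocols. The deposited values are UMI counts per gene and barcode, whole numbers with no normalization, and per the file headers the matrix was written by software version 3.1.0. Per the submitters' processing notes, Cell Ranger 3.1.0, bcl2fastq 2.20.0 and STAR 2.7.3a were used. The genome build and any filter on barcodes are not given in the sources used here.

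From these counts, barcodes were filtered as stated above and gated by marker counts. Thresholds were 3 goblet, 3 Paneth, 4 enteroendocrine, 10 enterocyte, 6 revival and 3 tuft markers, then 5 stem or 5 cycling markers among the remaining cells. The thresholds and the hormone gene subsets were set after marker counts had been seen. Cells passing several gates were set aside, except that cells passing both the goblet and the Paneth threshold stayed in the goblet gate, and no doublet caller was run. UMIs were summed per gate and set and scaled to 1000000 (CPM), with exact Poisson intervals, exact Clopper-Pearson intervals for shares, and exact conditional binomial intervals for ratios. UMI counting limits duplicate reads, and intervals cover counting error only. Expected shares of cells with a UMI were computed at 2000 UMIs per cell, without 265 shallower cells in set 1 and 77 in set 2. Genes named besides the 8 come from fixed lists of mucus genes and from the 3 genes most correlated with each member. The members and lists were chosen with earlier results of these data known.

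Tested on simulated data, the ratio of the sets called 200 of 200 genes changed 2-fold and 0 of 7144 unchanged genes, and the restriction rule called 188 of 200 genes set 40-fold higher and 0 of 11449 flat genes. The simulated counts were drawn per gate or set with counting error only. They held no variation between cells, so they do not cover ratios that a few cells set. Alternatives covered the mitochondrial limit, equal weight of cells, the richest and deepest cells, shared barcodes, gate thresholds, the restriction limit, low-level filters, pseudocounts and the total used for scaling. Analyses used Python 3.11.15, numpy 2.4.6, scipy 1.17.1 and pandas 2.3.3.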

Additional observations from a re-analysis of the deposited data

Results flagged for a closer look

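Barcodes left out because 20% to 50% of their UMIs were mitochondrial also carried goblet mucus transcripts. Of the settings run, only the alternative with a mitochondrial limit of 50% included these barcodes. They held 95 Muc2 UMIs in set 1, spread over 48 of 2518 barcodes, and 47 in set 2, in 25 of 2013 barcodes, where 3 UMIs were taken as the limit of a count of 0. These are 5.88 CPM (interval 4.75 to 7.18) and 3.23 CPM (2.38 to 4.30). In set 2 the same barcodes held 32 Zg16 UMIs, in 14 barcodes (interval 1.51 to 3.11 CPM), against 1 UMI in set 1.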

How the results depend on the processing

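The number of restricted members, 4 as reported, was 3 to 5 under all alternatives but one: a goblet gate of 2 markers gave 2, Muc2 and Spink4. Leaving out the goblet-gated cells with 3 or more Paneth markers, chosen after seeing the data, gave 3, without Agr2, and leaving out the 5% of cells with most UMIs gave 5, with Tff3. Muc2 and Spink4 were restricted and Muc13 broad under each alternative run. The number of members past 1.5-fold between the sets, 3 as reported, was 0 with equal weight of cells, 1 without the 3 cells richest in the gene, 1 without the 5% of cells with most UMIs (Spink4 both times), and 5 with no filter other than 10 UMIs, which added Muc2 and Clca1. In the first 3 of these settings Zg16 left the count by falling below 10 CPM in the mean, with log2 ratios of 6.14, 4.32 and 7.09. It was 1 (Fcgbp, lower in set 2) without goblet-gated, Paneth-gated and mixed cells and the revival-gated cell with most Tff3, and 2 or 3 with the other alternatives. The log2 ratio of Spink4 reversed to −0.38 without goblet-gated, Paneth-gated and mixed cells and to −0.41 without that revival-gated cell too, both chosen after seeing the data. The causes of these changes were not tested. The 12 and 13 goblet-gated cells limit the precision of every value within that gate, and members with at most 3 UMIs there in a set were not placed. No paired analysis was possible because each group has 1 library and the labels carry no replicate numbers.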

Other observations

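Barcodes with over 50% mitochondrial UMIs held Zg16 in the same uneven way, with 6 UMIs in set 1 and 40 in set 2. Fcgbp was at 121 CPM (115 to 126) in the barcodes with 20% to 50% mitochondrial UMIs of set 1 and at 49.0 CPM (45.5 to 52.7) in those of set 2, the opposite order to the kept cells. The order was also opposite for Spink4 (265 and 91.1 CPM), Tff3 (243 and 132 CPM), Agr2 (66.0 and 34.3 CPM) and Muc2, given above, while Muc13 was at 156 and 157 CPM.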
